A study of Mus musculus with 8 samples.

Results

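Wnt ligands, their Frizzled receptors and the secreted proteins that block them were followed in tumour samples of the 4T1.2 line. The line derives from a mouse mammary carcinoma, grows in the mammary gland and seeds bone. The members were all probe sets whose single gene symbol in the platform annotation names a Wnt ligand, a Frizzled receptor, Dkk1 to Dkk4, a secreted Frizzled-related protein including Frzb, or Wif1. This rule, which uses names and no measured value, gave 76 of the 34945 probe sets with a single symbol, or 39 of 18193 genes. They were 19 Wnt ligand genes with 32 probe sets, 10 Frizzled genes with 26, 4 Dickkopf genes with 6, 5 secreted Frizzled-related protein genes with 11, and Wif1 with 1. Of the 39 genes, 16 had 1 probe set and 23 had more, up to 6 for Fzd3.

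RNA was measured on 8 one-colour arrays. Of these, 4 came from primary 4T1.2 tumours in the mammary gland and 4 from spine metastases, each pair from the same Balb/c mouse, so that replicate numbers 1 to 4 stand for 4 mice. All arrays share the strain and the injected line, no group received a labelled treatment, and no label gives the animals' age. The labels describe the material as isolated tumour epithelial cells, without saying how the cells were sorted.

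Wnt ligands are secreted, lipid-modified glycoproteins that bind a Frizzled receptor together with a co-receptor of the Lrp family. In the canonical branch this stops the destruction of beta-catenin, which then activates target genes with TCF/LEF factors. Secreted Frizzled-related proteins and Wif1 bind Wnts outside the cell, and Dickkopf proteins such as Dkk1 bind the co-receptor. In bone the pathway is known for driving osteoblast formation, and in the mammary gland for ductal growth.

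The metastasis arrays stood apart from the primary arrays before any gene was considered. The actin control had a log2 signal at its 3' probe set that exceeded the 5' one by 1.08 to 1.90 in primary tumours and by 4.55 to 6.18 in metastases (difference 3.84, exact permutation p = 0.0286, two-sided, the smallest p that 4 against 4 arrays allow), and the Gapdh control one that did so by 1.55 to 2.59 and by 4.62 to 6.08 (difference 3.07, exact p = 0.0286). Both differences were widest on metastasis arrays 3 and 4. The summed linear signal of 9 epithelial marker genes was 13860 to 14838 on primary arrays and 1091, 8425, 2210 and 13215 on metastasis arrays 1 to 4, with arrays 1 and 3 the lowest. Krt8 and Krt18 made up 83.3% to 91.6% of this sum on primary arrays and 20.9%, 87.4%, 56.7% and 88.8% on metastasis arrays 1 to 4, so the order of the arrays is mostly theirs. The other 7 epithelial markers summed to 1228 to 2316 on primary arrays and to 863, 1057, 956 and 1485 on metastasis arrays. No defining epithelial marker lay under the array median in both groups, and 2 of the 9 were lower on the probe set with the highest mean. Another probe set of Epcam (fold -1.48) and 1 of Cldn3 were also called lower. Granulocyte and B lineage markers (8 of 10 higher; sums 572 to 1041 against 12534 to 32505) and nerve markers (6 of 7 higher; 498 to 551 against 4818 to 11970) were high on all metastasis arrays, and macrophage markers (6 of 7 lower; 26661 to 45644 against 5561 to 14366) were low on them. Osteoblast markers summed to 398 to 880 against 768 to 2574, with 1 of 8 higher and Mepe, Phex and Sost under the array median in both groups. Cartilage sums were 706 to 1084 against 1206 to 3133 (3 of 8 higher, Hapln1 and Matn1 under the median), stromal sums 2151 to 6877 against 4605 to 9815 (2 of 8 higher, 1 lower), endothelial sums 302 to 482 against 658 to 930 (1 of 7 higher, Emcn, Pecam1 and Tek under the median) and muscle sums 179 to 204 against 253 to 390 (2 of 7 higher, Myh1, Myh4, Mylpf and Tnnt3 under the median). The part of RNA quality and of these cell types in the results below was not tested, and in bulk samples fewer cells of a type and less RNA per cell cannot be told apart.

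Few of these genes differed between bone metastasis and primary tumour, and those that did were mostly Frizzled receptors that were lower in bone. The share of Frizzled probe sets called, 19.2%, was nevertheless close to the 20.6% of all probe sets. Wnt7b fell on both of its probe sets, Fzd5 fell on both of its own, Fzd7, Fzd1 and Fzd2 fell on 1 probe set each, and Sfrp5 rose on 1. In all, 7 member probe sets were lower and 1 was higher (limma, adjusted p under 0.05), and 68 did not pass the test. That is 10.5% of the members called, against 20.6% of all probe sets tested. The background was 11.9% for lower calls and 8.72% for higher calls, where the members had 9.21% and 1.32%. The share of members called was thus below that of all probe sets. Their median log2 fold was 0.11, beside 0.09 over all probe sets, and 52 of the 76 folds were above 0. Over all probe sets, 57.8% of the calls were lower, but 44.5% after scaling the arrays to a common 75th percentile, which moved the median fold of all probe sets from 0.09 to 0.29. The groups did not overlap for 12 of the 76 members (7 lower, 5 higher), beside 28.3% of all probe sets. With the 75th percentile scaling 4 members were lower and 3 higher. With the mouse as a block, 3 members were lower (Wnt7b, Fzd5 and Fzd7, 1 probe set each) and 1 higher (Dkk3).

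Most members gave a low signal on these arrays. Of the 76 probe sets, 43 had group means under the array median in both groups (5.17 for primary and 5.30 for metastasis arrays, log2 signal), 26 lay above it in both, 3 only in primary tumours and 4 only in metastases. A log2 fold is not exact where a group lies under that median. Calls were rarer among dim probe sets everywhere. Of 22 members above the median level of all probe sets, 4 were lower and 1 higher, or 22.7% called against 32.9% of all probe sets as bright (20.8% lower, 12.1% higher). Of 54 members at or below it, 3 were lower and 0 higher, or 5.56% against 8.40% (3.08% lower, 5.32% higher). At an unadjusted limma p under 0.05 these 54 held 3 lower and 8 higher.

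**Figure D1:**
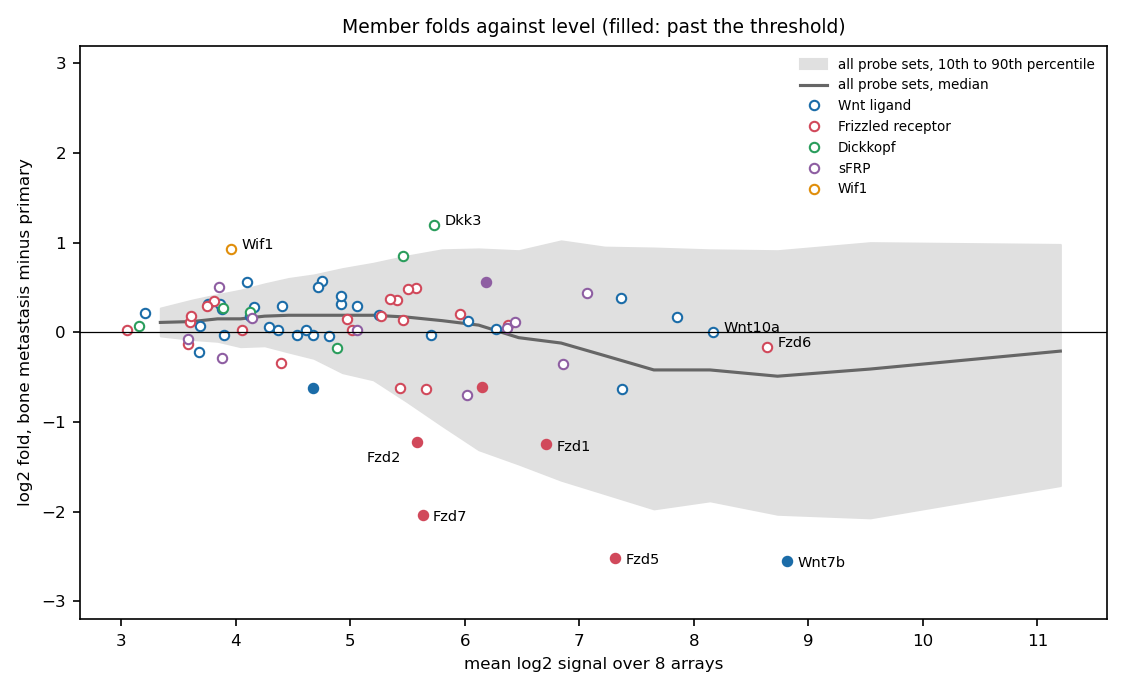
Log2 fold of each member probe set (bone metastasis minus primary, vertical axis) against its mean log2 signal over the 8 arrays (horizontal axis), coloured by role and filled where past the threshold. The grey band spans the 10th to 90th percentile of all probe sets at that level; of the probe sets marked by name, Wnt7b, Fzd5, Fzd7 and Fzd2 lie below it and Dkk3 and Wif1 above it, and some dim ones without a name also lie outside it.

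Wnt7b was the one ligand gene with a call. Wnt7b, a ligand made by epithelia that signals through beta-catenin in several organs, had log2 signals of 10.32, 9.32, 10.29 and 10.40 in primary tumours 1 to 4 on probe set 1420892_at, and of 6.43, 7.95, 7.17 and 8.58 in the matched metastases. The groups did not overlap, and all 4 mice were lower. The means were 10.08 ± 0.51 and 7.54 ± 0.94 (SD, n = 4), a log2 fold of -2.55 with an SE of 0.46, or 5.84-fold lower (limma adjusted p = 0.00709).

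The other Wnt7b probe set, 1420891_at, lay near the dim end of the range. Its signals were 4.83, 4.68, 5.28 and 5.12 in primary tumours and 4.20, 4.23, 4.35 and 4.67 in metastases, with the highest metastasis array just under the lowest primary array. Its log2 fold was -0.62 (SE 0.18, limma adjusted p = 0.0432), and with the mouse as a block it missed the threshold (limma adjusted p = 0.0569). Of 12 fits that left out 1 array or 1 mouse, this call held in 2, those without primary array 2 and metastasis array 4. Wnt7b on probe set 1420892_at kept its call with the block (limma adjusted p = 0.0189) and with metastasis arrays 1 and 3 left out (log2 fold -1.81, limma adjusted p = 0.0252). Over the same 12 omissions its fold ran from -2.94 to -2.10, and the call was lost in 1 of them, without mouse 3 (limma adjusted p = 0.0691). The 4 metastasis arrays fell in the same order for Wnt7b as for the keratins Krt8 (7.34, 12.39, 9.80 and 12.97) and Krt18 (6.05, 10.95, 8.49 and 11.86). The epithelial markers Krt5 (5.74, 6.43, 6.39 and 6.75) and Cldn3 (6.35, 7.47, 7.17 and 8.28) also had this order. The epithelial adhesion genes Cdh1 (7.0, 7.89, 6.96 and 5.74) and Epcam (8.34, 8.45, 8.65 and 9.35) did not, nor did Cldn4, Krt14 and Krt19. These orders are of the probe set with the highest mean of each marker. For Epcam that probe set had a fold of -0.22, where the other had -1.48.

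None of the other 30 ligand probe sets, from 18 genes, was called; 5 had an unadjusted limma p under 0.05. Their log2 folds ran from -0.63 to 0.57 with a median of 0.17, and 23 were above 0. Wnt10a, a ligand of skin and mammary epithelium, had signals of 9.0, 7.55, 8.38 and 7.72 in primary tumours and of 7.80, 8.26, 7.63 and 8.98 in metastases. The groups overlapped throughout, with a log2 fold of 0.00 (SE 0.39). Wnt11, which acts mainly outside the beta-catenin branch, had a fold of 0.38 (SE 0.15, limma adjusted p = 0.105) and was higher in all 4 mice. The 4 probe sets of Wnt5a, the best known ligand of the non-canonical branch, had group means between 3.57 and 4.32, under the array median, and folds from -0.22 to 0.26. Wnt3a, a classic activator of beta-catenin, had a dim signal of 4.47 ± 0.11 against 5.04 ± 0.48 (SD, n = 4) without overlap, and its fold of 0.57 (SE 0.23) was not called (limma adjusted p = 0.115). Both Wnt11 and Wnt3a passed the threshold without metastasis array 1.

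For Wnt9a, a ligand expressed in developing joints, the probe sets disagreed. Probe set 1436978_at gave 8.05, 7.29, 7.93 and 7.48 in primary tumours and 7.71, 6.91, 6.81 and 6.81 in metastases, a fold of -0.63 (SE 0.26, limma adjusted p = 0.124). It was lower in all 4 mice, but metastasis array 1 lay within the primary range. The dim probe set 1425889_at gave a fold of 0.56 (SE 0.21, limma adjusted p = 0.0882) and was higher in all 4 mice, so the data give no direction for this gene. Without metastasis array 1 both probe sets passed the threshold, in opposite directions.

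**Figure D2:**
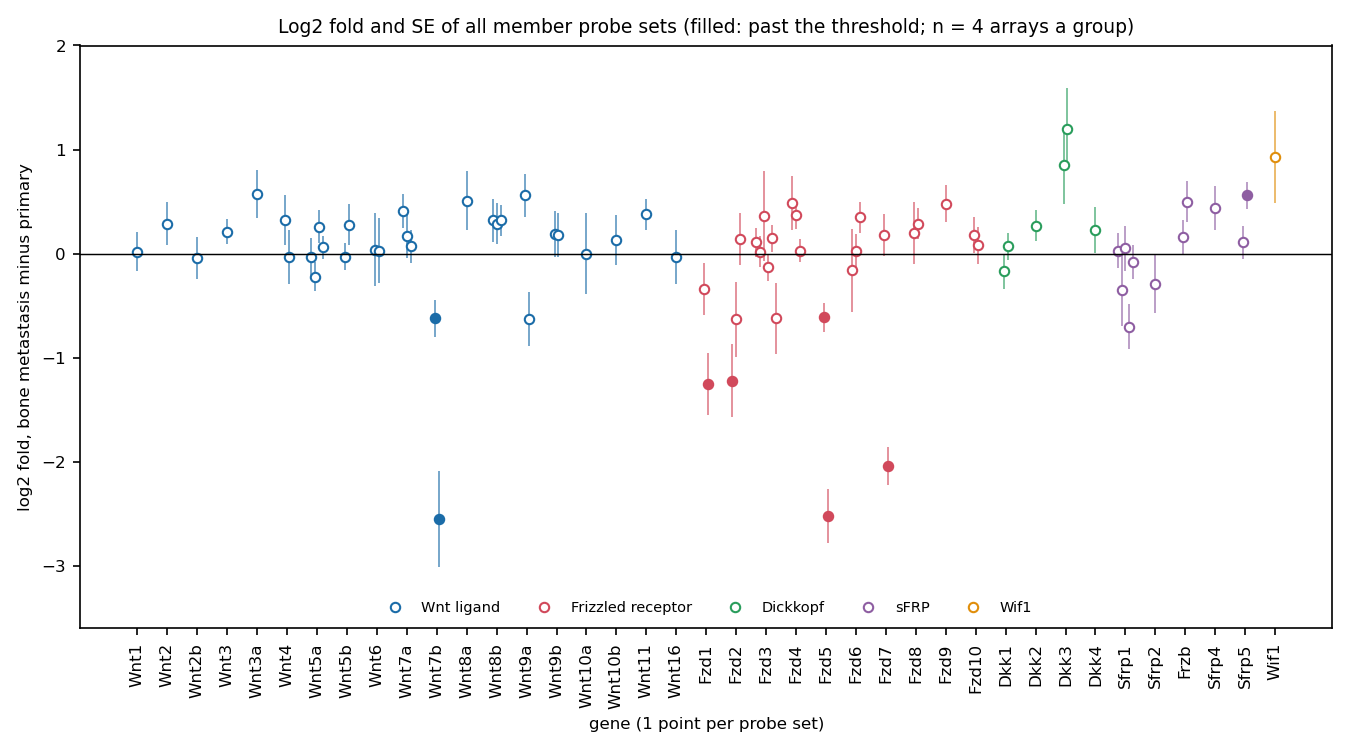
Log2 fold with its SE (bone metastasis minus primary, vertical axis) for each of the 76 member probe sets, by gene and coloured by role, with filled points past the threshold (n = 4 arrays a group). The filled points are 7 below 0, for Wnt7b, Fzd1, Fzd2, Fzd5 and Fzd7, and 1 above 0, for Sfrp5.

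Frizzled receptors are 7-span membrane proteins that bind Wnts through a cysteine-rich outer domain. Of their 26 probe sets 5 were lower and 0 higher, or 19.2% called, close to the 20.6% of all probe sets (11.9% lower). Among the 7 above the median level 3 were lower, where 20.8% of all probe sets as bright were lower, with a median log2 fold of -0.61, beside -0.19 over all probe sets as bright. The 5 calls came from 4 of the 10 genes: Fzd5, Fzd7, Fzd1 and Fzd2. At an unadjusted limma p under 0.05, 5 Frizzled probe sets were lower and 3 higher.

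RefSeq promoter windows were at hand for 27 of the 39 member genes (GRCm38.p6), among them Fzd5, Fzd7 and Fzd1. The 250 bases before the start of these 3 receptor genes, each with a probe set called lower, are shown 5' to 3' on the strand of the gene. Capitals mark the GC box GGGCGG, the motif of Sp factors, and the TCF/LEF core, spelled CTTTGAA with its variant CTTTGAT as well as CTTTGTA with its variant CTTTGTT, each searched on both strands, with overlapping matches joined.
Fzd5: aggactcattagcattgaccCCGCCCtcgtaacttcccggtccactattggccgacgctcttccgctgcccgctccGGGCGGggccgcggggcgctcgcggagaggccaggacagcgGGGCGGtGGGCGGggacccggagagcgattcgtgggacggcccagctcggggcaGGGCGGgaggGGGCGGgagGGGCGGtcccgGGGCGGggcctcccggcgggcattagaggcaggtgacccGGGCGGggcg
Fzd7: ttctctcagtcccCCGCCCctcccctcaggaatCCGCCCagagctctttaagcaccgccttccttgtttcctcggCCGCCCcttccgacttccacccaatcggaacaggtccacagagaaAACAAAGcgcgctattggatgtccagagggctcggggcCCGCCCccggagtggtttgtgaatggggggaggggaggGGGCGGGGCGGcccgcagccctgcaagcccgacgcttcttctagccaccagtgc
Fzd1: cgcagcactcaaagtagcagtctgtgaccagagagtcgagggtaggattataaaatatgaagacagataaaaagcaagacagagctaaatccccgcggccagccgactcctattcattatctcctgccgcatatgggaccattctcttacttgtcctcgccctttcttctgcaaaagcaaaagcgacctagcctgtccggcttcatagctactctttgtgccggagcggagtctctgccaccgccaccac
The Fzd5 window is chr1:64737751-64738000 on the minus strand, the Fzd7 window chr1:59481897-59482146 on the plus strand and the Fzd1 window chr5:4758217-4758466 on the minus strand. They share little by these letters. Fzd5 has 9 GC boxes and 32 CpG dinucleotides at 76.4% GC, Fzd7 has 6 and 17 at 65.2%, and Fzd1 has 0 and 12 at 51.2%. GC boxes are in 32.7% of all 32851 windows of this length and in 22 of the 30 member windows, and median CpG counts are 6 and 21.5. A TCF/LEF core is in 14.8% of all windows and in 4 of the 30, of which the Fzd7 window has 1, written AACAAAG on this strand. A match describes letters and is not a binding site.

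Fzd5, the receptor needed for Paneth cell and eye development, fell on both probe sets. On 1455604_at its log2 signals were 8.16, 8.67, 8.57 and 8.88 in primary tumours and 5.8, 6.74, 6.01 and 5.65 in metastases. The groups were well apart, and the 4 mice differed by -2.35, -1.93, -2.56 and -3.24. The fold was -2.52 (SE 0.26), or 5.73-fold lower (limma adjusted p = 0.000972, and 0.00616 with the mouse as a block).

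On the second Fzd5 probe set, 1422937_at, the signals were 6.40, 6.73, 6.35 and 6.34 against 5.96, 5.73, 5.92 and 5.76. The groups again did not overlap, and the fold was smaller at -0.61 (SE 0.14, limma adjusted p = 0.0175). With the block its adjusted p was 0.0646 by limma, past the threshold no longer. This call was lost in 4 of the 12 omissions, without primary array 2 and without mouse 2, 3 or 4. The direction of Fzd5 thus held on both probe sets, while the size differed between them.

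Fzd7, a receptor of stem and progenitor cells in the mammary gland and intestine, was read by 2 probe sets that did not go together. On 1450044_at the signals were 7.10, 6.53, 6.5 and 6.47 in primary tumours and 4.54, 4.41, 4.79 and 4.68 in metastases. All metastases lay more than 1 unit below all primary tumours and under the array median, so the size of the fold of -2.04 (SE 0.18, 4.13-fold, limma adjusted p = 0.000523, 0.00634 with the block) is not exact. On 1450043_at the signals were 5.13, 5.24, 5.12 and 5.23 against 4.88, 5.22, 5.65 and 5.70, with overlap and a fold of 0.18 (SE 0.20, limma adjusted p = 0.530). The fall of Fzd7 therefore rests on 1 of its 2 probe sets.

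Fzd5 on 1455604_at and Fzd7 on 1450044_at kept their calls in each of 12 fits that left out 1 array or 1 mouse, with folds from -2.75 to -2.28 and from -2.16 to -1.87. They were past the threshold with metastasis arrays 1 and 3 left out (-2.38 and -2.10) and with arrays 3 and 4 left out (-2.30 and -2.17). With the actin 3' to 5' difference entered as a covariate, which separates the groups, 0 of the 34945 probe sets passed the threshold by limma (4552 at an unadjusted p under 0.05). Under it the folds were -0.79 (SE 0.78) for Fzd5, -3.02 (SE 0.58) for Fzd7 and -3.52 (SE 1.75) for Wnt7b. The SE was thus as large as the fold for Fzd5.

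Fzd1, which pairs with Lrp co-receptors to signal through beta-catenin, had signals of 6.78, 7.73, 7.37 and 7.46 in primary tumours and of 6.51, 5.59, 6.57 and 5.69 in metastases on 1437284_at. The groups did not overlap, but mouse 1 differed by only -0.27 and mouse 2 by -2.14. The fold was -1.25 (SE 0.30, limma adjusted p = 0.0201, 0.0594 with the block). Fzd1 lost its call in 6 of the 12 omissions, namely without primary array 2, 3 or 4 and without mouse 2, 3 or 4 (limma adjusted p up to 0.118). Its dim probe set 1422985_at gave -0.34 (SE 0.25) and was not called.

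Fzd2, a receptor also used by Wnt5a, was called on 1 of 3 probe sets. On 1418532_at its signals were 6.90, 5.50, 6.28 and 6.08 in primary tumours and 4.69, 4.69, 4.71 and 5.79 in metastases. Metastasis array 4 lay inside the primary range, and the fold was -1.22 (SE 0.35, limma adjusted p = 0.0412, 0.0610 with the block). The others gave -0.63 (SE 0.36) and 0.14 (SE 0.25), neither called. Fzd2 kept its call in 3 of the 12 omissions, those of primary array 2, metastasis array 4 and mouse 4; in the other 9 the limma adjusted p reached up to 0.204.

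**Figure D3:**
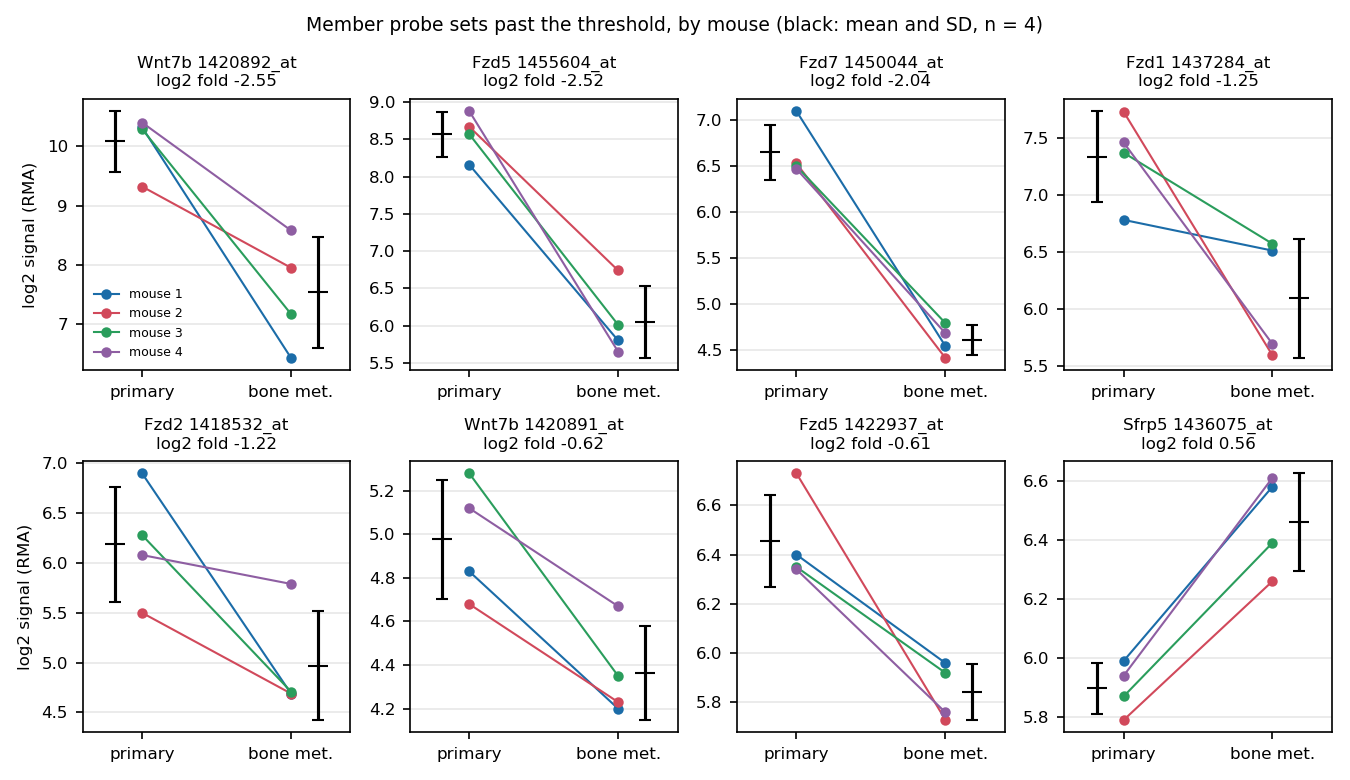
Log2 signal (vertical axis, 1 panel per probe set) in the primary tumour and the bone metastasis of each mouse, joined by a line, for the 8 member probe sets past the threshold. Black marks give the mean and SD (n = 4). Every line falls for Wnt7b and the Frizzled receptors and every line rises for Sfrp5, and only for Fzd2 do the groups overlap.

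The other 6 Frizzled genes had no call. Fzd6, a receptor of planar cell polarity, had signals of 9.32, 8.18, 8.98 and 8.38 against 9.68, 8.43, 8.0 and 8.13 on 1417301_at, an overlap throughout and a fold of -0.16 (SE 0.40, limma adjusted p = 0.804). Its sign changed with the scaling, to 0.05 at the 75th percentile and 0.20 after quantile normalization. Fzd4, the receptor of Norrin in vessels, had folds of 0.49, 0.37 and 0.03 on 3 probe sets. Fzd9 had 0.48 (SE 0.18, limma adjusted p = 0.0895), with higher values in all 4 mice and no overlap. Both rest on mouse 2, where primary and metastasis arrays read 5.39 alike to 2 decimals. Fzd9 passed the threshold without metastasis array 2. Fzd3, an axon guidance receptor, ranged from -0.62 to 0.36 over 6 probe sets. Its probe set 1434788_at read 5.76, 5.01, 5.14 and 5.03 in primary tumours and 6.0, 4.70, 6.70 and 4.97 in metastases. It was high on metastasis arrays 1 and 3, which had the highest nerve marker sums (9541 and 11970, against 4818 and 4845). These arrays also had the highest cartilage (2713 and 3133), stromal (7250 and 9815) and osteoblast (2574 and 827) sums of the metastases. The brightest Fzd3 probe set, 1450135_at, had another order, with 4.65, 4.5, 5.31 and 6.03 on metastasis arrays 1 to 4. A link of Fzd3 to any of these cell types was not tested.

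Of the 18 probe sets of secreted antagonists 1 was higher and 0 lower by limma, or 5.56% called, beside 8.72% higher and 11.9% lower of all probe sets (4 higher and 1 lower at an unadjusted p under 0.05). Whether antagonists and receptors differed was not tested. Sfrp5, a secreted Frizzled-related protein known from fat tissue and gut, had signals of 5.99, 5.79, 5.87 and 5.94 in primary tumours and of 6.58, 6.26, 6.39 and 6.61 in metastases on 1436075_at. The groups did not overlap and the rise was small, at 0.56 (SE 0.13, 1.48-fold, limma adjusted p = 0.0193, 0.0528 with the block). The other Sfrp5 probe set gave 0.11 (SE 0.16, limma adjusted p = 0.649). The call was lost in 6 of the 12 omissions, those of primary array 2, 3 or 4 and of mouse 1, 3 or 4 (limma adjusted p up to 0.102), with metastasis arrays 1 and 3 left out (0.0673), and with an intensity trend in the variance (0.0513).

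Sfrp4, an antagonist made by osteoblast lineage cells, had signals of 6.94, 6.73, 6.93 and 6.80 against 6.91, 7.74, 7.57 and 6.94, with overlap and a fold of 0.44 (SE 0.21, limma adjusted p = 0.175). Sfrp1, which binds Wnts and is often silenced in carcinomas, ranged from -0.70 to 0.05 over 5 probe sets. On 1448395_at it was lower in all 4 mice without overlap (6.37 ± 0.41 against 5.67 ± 0.22, SD, n = 4) at a limma adjusted p of 0.0580, and after quantile normalization that probe set was called. Frzb and Sfrp2, antagonists of cartilage and stroma, lay under the array median in both groups, with folds of 0.16 and 0.50 for Frzb and -0.29 for Sfrp2. The latter Frzb probe set passed the threshold without metastasis array 2.

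Dkk3, a divergent Dickkopf protein that does not bind the co-receptor as Dkk1 does, had the highest fold of all members. On 1448669_at its signals were 5.69, 5.01, 5.04 and 4.82 in primary tumours and 7.17, 5.94, 6.79 and 5.42 in metastases. It was higher in all 4 mice, yet metastasis array 4 lay within the primary range. The fold of 1.2 (SE 0.39) missed the threshold (limma adjusted p = 0.0601) and passed it with the mouse as a block (SE 0.24, limma adjusted p = 0.0262), with the 75th percentile scaling, with the filter on dim probe sets and with an intensity trend in the variance. With metastasis arrays 1 and 3 left out the fold was 0.54 (SE 0.29, limma adjusted p = 0.226). Among the 12 omissions it passed the threshold without metastasis array 4. The second probe set, 1417312_at, gave 0.85 (SE 0.37, limma adjusted p = 0.136), also higher in all 4 mice.

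Wif1, a secreted Wnt inhibitor of bone, cartilage and nerve, had signals of 3.38, 3.86, 3.24 and 3.51 in primary tumours and of 4.78, 4.07, 5.58 and 3.29 in metastases. Metastasis arrays 1 and 3 were high and array 4 lay at the primary level, and the fold of 0.93 (SE 0.44) was not called (limma adjusted p = 0.168). Wif1 was called in the fit without metastasis array 4 and in the fit without metastasis arrays 3 and 4. Both Wif1 and Dkk3 thus had their highest signals on metastasis arrays 1 and 3, the arrays with the lowest epithelial sums and the highest nerve, cartilage and stromal sums. Dkk1, an inhibitor secreted by many tumours in bone, gave 4.97 ± 0.08 against 4.80 ± 0.30 (SD, n = 4) on its brighter probe set, under the array median in both groups, and was not called (fold -0.17, SE 0.17).

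**Figure D4:**
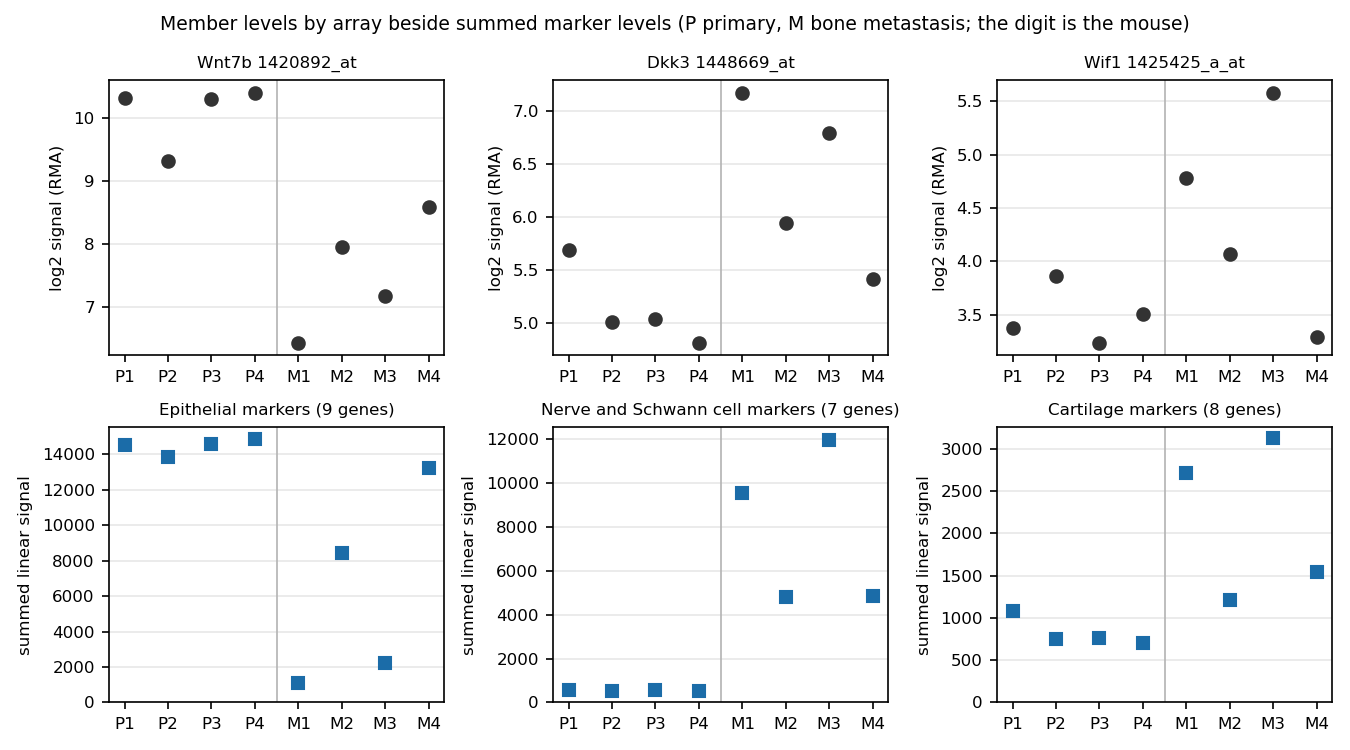
Top row, log2 signal of Wnt7b, Dkk3 and Wif1 on each array; bottom row, summed linear signal of epithelial, nerve and cartilage marker genes on the same arrays (P primary, M bone metastasis, the digit is the mouse). Metastasis arrays 1 and 3 are low for Wnt7b and the epithelial sum and high for Dkk3, Wif1 and the nerve and cartilage sums.

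With a single probe set per gene, the one with the highest mean, 4 of the 39 member genes were lower (Wnt7b, Fzd5, Fzd7 and Fzd1) and 0 higher, or 10.3% called against 21.8% of all genes (12.1% lower, 9.72% higher). The median fold was 0.08, beside 0.09 over all genes, and 9 members had an unadjusted limma p under 0.05. With the mean of a gene's probe sets the same 4 genes were called. With the most variable probe set, Fzd2 was lower and Sfrp5 higher as well. The remaining genes of the pathway were read on this scale of 1 probe set per gene. Of 53 measured partner genes 5 were higher and 8 lower, or 24.5% called, with a median fold of -0.03. This share was close to the 21.8% of all genes.

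**Figure D5:**
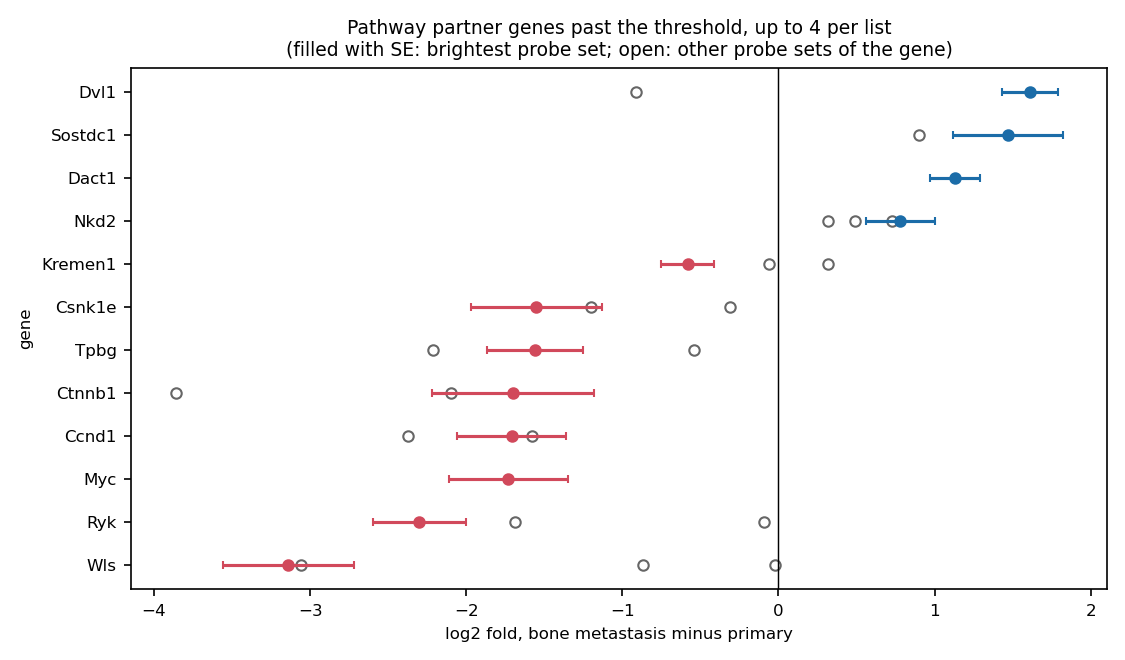
Log2 fold (bone metastasis minus primary, horizontal axis) of the 12 named pathway partner genes: filled points with SE show the probe set with the highest mean (n = 4 arrays a group), open points the other probe sets of the gene. For Dvl1 and Kremen1 the probe sets lie on opposite sides of 0, and for Wls and Ryk an open point lies near 0.

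Of 10 genes of Wnt production and other extracellular regulators, antagonists among them, 2 were lower and 1 higher. That is 30% called, against 21.8% of all genes. Wls, the carrier that takes lipid-modified Wnts to the cell surface, had signals of 9.10, 8.67, 9.37 and 9.46 in primary tumours and of 6.47, 7.05, 5.49 and 5.04 in metastases. The groups were far apart, with a fold of -3.14 (SE 0.42, limma adjusted p = 0.00206). The other Wls probe sets gave -3.06, -0.87 and -0.02, of which the first was also called. On metastasis arrays 1 to 4 Wls had the reverse order of the actin 3' to 5' difference (4.85, 4.55, 5.72 and 6.18). Of the other named partner genes Ctnnb1, Csnk1e and Myc had this order too, and the rest did not. With that difference as a covariate the fold of Wls was 0.95 (SE 0.64), not called. The part of RNA quality was not tested. Tpbg, a membrane glycoprotein that modulates Wnt signalling, fell by 1.56 (SE 0.31), a call lost without mouse 3 or 4 (limma adjusted p up to 0.0730). Sostdc1, a secreted antagonist related to sclerostin, rose by 1.47 (SE 0.35) in all 4 mice from a dim primary level of 4.11 ± 0.19 (SD, n = 4). Its call was lost in 5 of the 12 omissions, without primary array 3 or 4 and without mouse 1, 3 or 4 (limma adjusted p up to 0.108), and with metastasis arrays 1 and 3 left out (0.0818) or 3 and 4 left out (0.0595). Porcn, the enzyme that attaches the lipid to Wnts, had a fold of 0.27 (SE 0.18) and was not called.

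Of 7 co-receptors and other surface receptors 2 were lower and 0 higher, or 28.6% called against 21.8% of all genes. Ryk, a Wnt receptor with an inactive kinase domain, had signals of 9.28, 8.12, 8.69 and 8.63 against 5.94, 6.80, 6.04 and 6.73. The groups did not overlap, and the fold was -2.30 (SE 0.30, limma adjusted p = 0.00176). Kremen1, the receptor that removes Lrp6 together with Dkk1, had -0.58 (SE 0.17, limma adjusted p = 0.0446, and 0.0829 with the block), and its other probe sets gave -0.06 and 0.32. That call was lost in 11 of the 12 omissions, all but that of metastasis array 4 (limma adjusted p up to 0.170), and with either other scaling (0.207 at the 75th percentile, 0.0643 after quantile normalization). Ryk kept its call in all 12 omissions. The co-receptor Lrp6 had -0.62 (SE 0.24, limma adjusted p = 0.0985), and Lrp5 had a dim signal with a fold of 0.23. None of 9 R-spondin, Lgr, Rnf43 and Znrf3 genes was called by limma on the probe set with the highest mean (2 at an unadjusted p under 0.05). Over all genes 21.8% were called, so few calls would be found among 9 genes at that share. The dimmer probe set of Rspo2, a secreted enhancer of Wnt signalling, was higher (4.28 ± 0.07 against 5.21 ± 0.32, SD, n = 4), with a fold of 0.93 (SE 0.17, limma adjusted p = 0.00828), while its other probe set gave 0.05.

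Of 21 intracellular genes 3 were higher and 2 lower. Ctnnb1, which encodes beta-catenin, had signals of 13.18, 13.23, 13.11 and 13.35 in primary tumours and of 11.80, 12.95, 11.28 and 10.02 in metastases, a fold of -1.70 (SE 0.52, limma adjusted p = 0.0486, and 0.0580 with the block). Adjusted over all probe sets instead of genes the p was 0.0510, past the threshold no longer. Metastasis array 2 lay nearest to the primary tumours. The call held in 2 of the 12 omissions, those of metastasis array 2 and mouse 2 (limma adjusted p up to 0.202 in the others). Its other probe sets fell by 2.10 and 3.86 and were both called in the fit over all probe sets (limma adjusted p = 0.0146 and 0.00123). With the actin covariate the fold of Ctnnb1 was 2.72 (SE 1.2), of opposite sign and not called, and those of Csnk1e, Myc and Wls also turned positive and that of Sostdc1 negative. Csnk1e, a kinase that acts on Dishevelled, had a fold of -1.55 (SE 0.42, limma adjusted p = 0.0310, and 0.0654 with the block), lost in 7 of the 12 omissions, those of primary array 1, 3 or 4, metastasis array 3 and mouse 1, 3 or 4. Dvl1, a Dishevelled protein that relays the signal from Frizzled, rose by 1.61 (SE 0.18) on one probe set and had a called fall of 0.91 on the other (fold -0.91, SE 0.25), so no direction can be given for it. Dact1, which binds Dishevelled and dampens signalling, rose by 1.13 (SE 0.16, limma adjusted p = 0.00233) in all 4 mice without overlap, and kept its call in all 12 omissions.

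Of 13 measured target genes 1 was higher and 2 lower, or 23.1% called, close to the 21.8% of all genes. Ccnd1, the cyclin that drives entry into the cell cycle, fell by 1.71 (SE 0.35), and Myc, a growth-promoting transcription factor, fell by 1.73 (SE 0.38), each in all 4 mice. Ccnd1 lost its call without mouse 3 (limma adjusted p = 0.0805) and after quantile normalization (0.0510), and Myc without mouse 1 (0.0559) or 3 (0.101) and with metastasis arrays 1 and 3 left out (0.0726). Both genes also answer to many other pathways. Nkd2, a feedback inhibitor that binds Dishevelled, rose by 0.78 (SE 0.22, limma adjusted p = 0.0385, and 0.0612 with the block), a call that held in 2 of the 12 omissions, those of metastasis arrays 1 and 2, and was lost after quantile normalization (0.0714). Axin2, the target most often read as a gauge of beta-catenin activity, had signals of 5.81, 5.21, 5.47 and 5.41 against 5.89, 5.94, 5.86 and 5.72. It was higher in all 4 mice, but the ranges overlapped and the fold of 0.37 (SE 0.16) was not called (limma adjusted p = 0.132). Lef1, both a target and a nuclear effector, stood at 9.49 on metastasis array 1 and between 6.17 and 6.57 on the other 3, against 5.64 to 5.99 in primary tumours, and its fold of 1.29 (SE 0.68) was not called. That array also had the highest granulocyte and B lineage sum, 32505, and the highest osteoblast sum, 2574. Its epithelial and macrophage sums, 1091 and 5561, were the lowest.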

How the data were processed

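Deposited values are log2 signals for each probe set, and the labels name RMA as the method behind them. RMA commonly comprises background correction, quantile normalization and probe set summary, but the labels do not say which of these steps were run. RMA's version and any step after it are details not given in the sources used here. Array medians ran from 5.16 to 5.17 in primary tumours and from 5.23 to 5.42 in metastases. Per the labels' protocols, RNA was labelled after 2 cycles of amplification. Scanner files, background and present calls were not used here, and probe set positions in transcripts were not used here. The number of arrays limits the precision. The median SE of a fold was 0.21.

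Of 45101 probe sets, 64 controls, 932 with several symbols and 9160 with none listed were left out. All 39 member symbols were unchanged in RefSeq (GRCm38.p6). The groups were compared in limma 3.58.1 under R 4.3.3 (lmFit, eBayes), two-sided, unpaired and unfiltered, with Benjamini-Hochberg adjustment over 34945 probe sets, or 18193 genes, and a threshold of 0.05; it was tested on simulated data. Folds are metastasis minus primary on the log2 scale. Both arrays of a number come from the same mouse per the series' design text, so a fit with the mouse as a block was also run; deviations of same-numbered arrays from their group means correlated at 0.16, 0.00, 0.03 and -0.10. Marker sums add linear signals of the probe set with the highest mean per gene. Named members had a call, were the brightest of their class or had probe sets on opposite sides of 0 that lay over 1 apart; named partners were at most 4 called genes per list; other genes, among them Wnt3a, Wnt10a, Wnt11, Fzd3, Fzd4, Fzd9, Sfrp1, Lef1 and Axin2, were chosen after their values were seen. Members, lists and tests were chosen with earlier results of these data known. Other fits used other scalings, filters, variance priors, a covariate and fewer arrays. Python 3.11.15 with pandas 2.3.3 and matplotlib 3.10.9 was used for promoters and figures.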

Additional observations from a re-analysis of the deposited data

Results flagged for a closer look

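In 90 groups of 4 arrays, for the named probe sets and the 2 controls, a single array was set against the other 3 by the gap to its nearest neighbour over the group's range; 6 groups passed Dixon's 95% critical value, where chance flags about 1 in 20. Fzd2 on 1418532_at had 5.79 on metastasis array 4, against 4.69 to 4.71 on the other 3. Wnt7b on 1420892_at had 9.32 in primary tumour 2, against 10.29 to 10.40, which lies toward the metastases. Fzd7 on 1450044_at had 7.10 in primary tumour 1, against 6.47 to 6.53, and Fzd5 on 1422937_at had 6.73 in primary tumour 2, against 6.34 to 6.40. Wnt9a on 1436978_at had 7.71 on metastasis array 1, against 6.81 to 6.91. Fzd3 on 1434788_at had 5.76 in primary tumour 1, against 5.01 to 5.14.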

How the results depend on the processing

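Called member probe sets kept their direction in every alternative run, and calls lost with the block or in single omissions are given beside the result. Probe sets of members that were not called and changed sign are given last. The main counts were 7 members lower, 1 higher, 4 member genes and 13 partner genes called, and 7214 probe sets called in all. With the replicate block 3 members were lower; the block changed no other call among the named probe sets and partner genes than those given in the report. With the 75th percentile scaling 4 were lower and 3 higher; it ended the calls of Fzd2 on 1418532_at (limma adjusted p = 0.0721), Fzd5 on 1422937_at (0.144) and Wnt7b on 1420891_at (0.202). The filter left 22 members to test, of which 4 were lower and 2 higher. With the actin covariate 0 members were lower, 0 were higher, and 0 member genes, 0 partner genes and 0 of all probe sets were called by limma (7 members at an unadjusted p under 0.05). Over all 12 omissions of 1 array or 1 mouse, members lower ranged from 2 to 8, members higher from 0 to 5, member genes from 2 to 7, partner genes from 4 to 15 and all calls from 2319 to 8439, the lowest values of all but the members higher being those without mouse 3. The actin and Gapdh differences ranged from 3.41 to 4.21 and from 2.58 to 3.40 without a mouse, where 0.10 is the smallest exact permutation p that 3 against 3 arrays allow.

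The following fits were chosen after seeing the data. With metastasis arrays 1 and 3 left out Fzd2 on 1418532_at (limma adjusted p = 0.191), Sfrp5 on 1436075_at (0.0673) and Wnt7b on 1420891_at (0.159) lost their calls, 2 members were higher and 8 partner genes were called, and with arrays 3 and 4 left out 3 members were higher and 8 member genes were called. With mice 1 and 2 alone 0 members were higher or lower, with 0 member genes, 0 partner genes and 0 of all probe sets called by limma (7 members and 6780 of all probe sets at an unadjusted p under 0.05). With mice 3 and 4 alone 3 members were lower (Wnt7b, Fzd5 and Fzd7, 1 probe set each) and 2 higher. The cause of these moves was not tested, beyond the smaller number of arrays.

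Signs changed as follows. Fzd6 on 1417301_at was 0.05 at the 75th percentile, 0.20 after quantile normalization, 1.39 with the covariate, 0.34 without metastasis arrays 3 and 4, 0.30 in mice 1 and 2, and -0.53 to 0.12 over the omissions. Fzd6 on 1448662_at was -0.13 after quantile normalization, -0.53 with the covariate, -0.10 without arrays 3 and 4, -0.06 in mice 1 and 2 and -0.08 to 0.13 over the omissions. Fzd2 on 1418534_at was -1.43 with the covariate, -0.13 without arrays 3 and 4, -0.23 in mice 1 and 2 and -0.13 to 0.45 over the omissions. With the covariate, without arrays 3 and 4 and in mice 1 and 2, Fzd7 on 1450043_at was -1.06, -0.13 and -0.13, and Sfrp5 on 1423023_at was -0.53, -0.04 and -0.03. With the covariate Wnt9a was -0.45 on 1425889_at and 0.22 on 1436978_at. Fzd1 on 1422985_at was 0.01 without arrays 1 and 3.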

Other observations

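Some Wnt ligand genes lie next to each other in the mouse genome with no other protein-coding gene between them in RefSeq, namely Wnt6 and Wnt10a, Wnt3a and Wnt9a, Wnt9b and Wnt3, and Wnt10b and Wnt1. Wnt6 on 1419708_at had log2 signals of 7.33, 5.69, 6.0 and 5.98 in primary tumours and of 5.90, 6.37, 6.25 and 6.65 in metastases, a fold of 0.04 (SE 0.35). Its highest signals in each group were on primary array 1 and metastasis array 4, which were also the highest for its neighbour Wnt10a, with 9.0 and 8.98. Primary array 1 had the highest stromal marker sum of its group, 6877 against 2151 to 2769, and also the highest osteoblast (880) and cartilage (1084) sums. Metastasis array 4 had the highest epithelial sum of its group, 13215. Neither the stromal nor the epithelial sum was highest on both arrays. The stromal sum was 5032 on metastasis array 4 and 9815 on metastasis array 3. The epithelial sum was 14516 on primary array 1 and 14838 on primary array 4. Wnt10b on its 1 probe set and Wnt1 on its own had folds of 0.13 (SE 0.24) and 0.02 (SE 0.19), and neither was called. These pairs were looked at after the values were seen and were not tested against other genes.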
